A study of Mus musculus with 17 samples.

Results

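The comparison described here asked what differed between haematopoietic progenitors that carried 1 deleted copy of the PU.1 upstream regulatory element (URE) and lacked both copies of Tet2, and progenitors that carried the same deletion with Tet2 intact. It rested on 6 of the 17 RNA-seq libraries of the series, 3 of genotype URE Δ/+ with Tet2 -/- (called URE het Tet2 KO) and 3 of genotype URE Δ/+ with Tet2 +/+ (called URE het). Members were chosen by genotype label alone. The remaining 11 libraries were 3 of wild type (WT), 3 of Tet2 -/- with both URE copies (Tet2 KO), 3 of Tet2 +/- with both URE copies and 2 of URE Δ/+ with Tet2 +/-. All were bone marrow cells sorted by flow cytometry as carrying cKit, a receptor of stem and progenitor cells, and lacking lymphoid and erythroid surface markers. The disease label went with the genotype: the 3 URE het Tet2 KO libraries were labelled AML and the 3 URE het libraries Normal, so loss of Tet2 and leukaemia cannot be told apart. The design text names age-matched controls, without an age for any library. The sources used here do not say how the Tet2 and URE alleles were made or whether each library came from its own mouse. All p-values therefore speak of the spread among libraries, which may be technical.

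PU.1, the product of Spi1, is an ETS-family transcription factor that myeloid and B lymphoid cells need in order to form. The URE is a distal enhancer upstream of Spi1 that raises its transcription in blood cells. Tet2 oxidises methylated cytosine, a step in the removal of DNA methylation, and loss of Tet2 in blood stem cells is a common lesion of clonal haematopoiesis and acute myeloid leukaemia (AML).

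The 6 libraries held 23.5 to 38.3 M counts over genes. They did not stand alike. On the first principal component of log2 CPM (counts per 1 M counts of the library), which held 36.6% of the variance, the URE het libraries lay at -40.7, -16.2 and -8.0 and the URE het Tet2 KO libraries at 14.5, 154.4 and 133.9 for replicates 1, 2 and 3. URE het Tet2 KO replicates 2 and 3 also read low along a stretch of chromosome 2 (60 to 160 Mb) that holds Spi1: the median level of its 409 genes was 52.1% and 50.4% of that in the Normal libraries, against 102% in replicate 1 and 97.6% to 102% in URE het. Titles numbered 1 to 7 and 8 to 17 separated on the second component, and each group had 1 library in the first range and 2 in the second, so title range was a term of the fit. Sex was not labelled. All 3 URE het libraries held Y-linked transcripts without Xist, URE het Tet2 KO replicates 1 and 3 held Xist without Y-linked transcripts, and replicate 2 held neither. Sex and the comparison therefore cannot be told apart within these 6 libraries. Kit, the gate's own marker, was present: it stood at 148, 145 and 170 CPM in URE het and at 117, 152 and 135 CPM in URE het Tet2 KO. Myb and Cd34 were taken as further markers of such progenitors and are not named in the gate. Myb was at 396 to 465 CPM in URE het and at 376 to 501 CPM in URE het Tet2 KO. Cd34 stood at 65.5, 65.8 and 75.7 CPM in URE het and at 10.1, 0.545 and 0.393 CPM in URE het Tet2 KO.

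**Figure D1:**
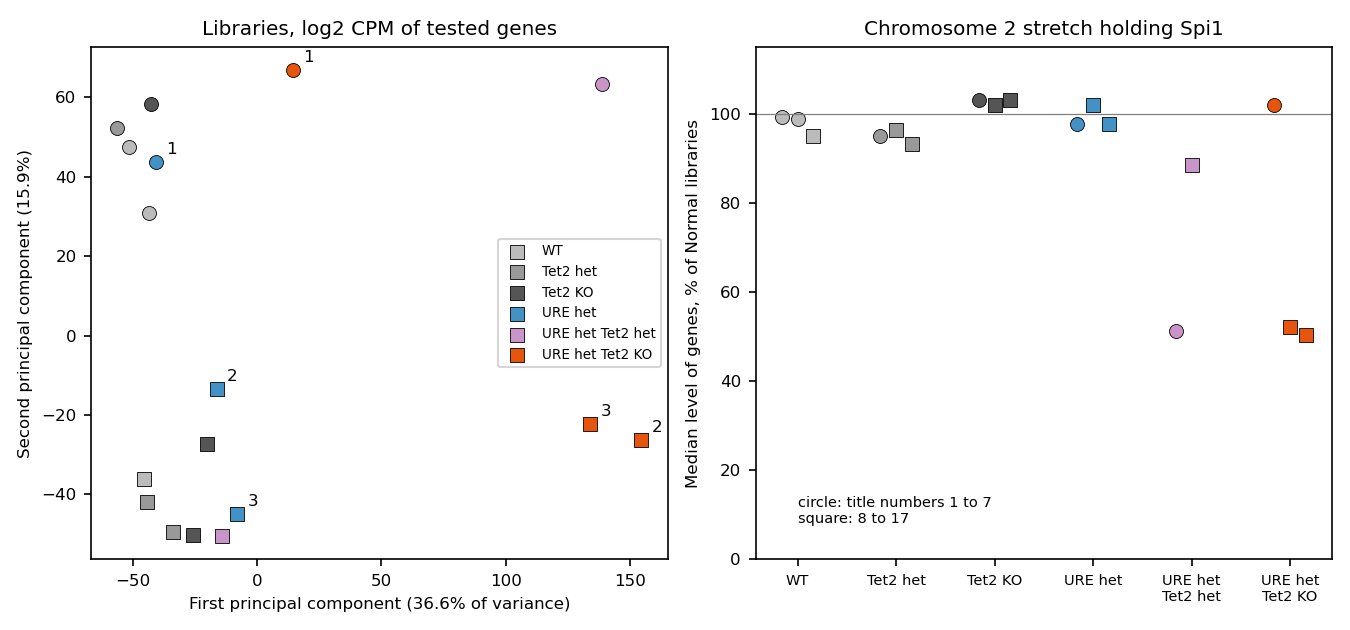
Left, first 2 principal components of log2 CPM for the 17 libraries, coloured by genotype and shaped by title range, with replicate numbers beside the 6 libraries compared. Right, median level of 409 genes of the chromosome 2 stretch that holds Spi1, as a percentage of the Normal libraries, 1 point per library. URE het Tet2 KO replicates 2 and 3 lie at 154.4 and 133.9 on the first component and at 52.1% and 50.4% on the right, and replicate 1 lies apart from both at 14.5 and 102%.

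Of 19951 genes tested, 258 (1.29%) passed an adjusted p of 0.05 in the fit of all 17 libraries with genotype and title range. They were 109 genes higher in URE het Tet2 KO (0.546% of the genes tested) and 149 lower (0.747%), and 99 and 133 of them were protein coding. The median log2 fold change was 2.03 among the genes that rose and -3.5 among those that fell, against 0.02 over all genes tested. The 3 values of one group lay wholly above or below the 3 of the other for 241 of the 258, and for 3570 of all genes tested (17.9%). Among those that fell were 4 class II antigen presentation genes, 5 B lineage genes, the eosinophil peroxidase Epx and 3 stem cell genes. Among those that rose were the beta subunits of the IL-3 and GM-CSF receptors, 2 metallothioneins and the secreted proteins Svep1 and Clu. The gene lists used below were written with earlier results of these data known. Their counts and medians beside the values over all genes tested are therefore descriptive and no separate support.

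How many genes passed depended strongly on the libraries. Leaving out URE het Tet2 KO replicate 1, 2 or 3 gave 3275, 7 and 18 genes, and leaving out URE het replicate 1, 2 or 3 gave 11, 20 and 34. Outside the comparison, leaving out 1 library of URE Δ/+ with Tet2 +/- gave 1722 or 1699 genes, and leaving out any 1 of the other 9 gave 29 to 106. A fit of the 10 libraries of the later title range called 3752 genes, 246 of them among the 258. A term for the sex that the transcripts showed, in the 15 libraries where it could be read (URE het Tet2 KO replicate 2 and 1 library of URE Δ/+ with Tet2 +/- were dropped), called 78 genes, 43 of them among the 258, and the same 15 libraries without that term called 689. In that fit the compared groups were wholly split by sex, so the size of the sex term came from genotypes with both URE copies. Whether it holds for the compared libraries was not tested, and passing with it does not separate sex from the comparison. Of the 46 genes that passed and were named by rule, 13 passed with the sex term and 33 did not. Those lost included Svep1 (adjusted p = 0.0513), Cd22 (0.0585), Itgam (0.0729), Cdkn1c (0.111), Ifngr1 (0.116), Cd74 (0.141), Mt2 (0.146) and Mt1 (0.257). Over all their alternatives the adjusted p of these 8 ran from 3.27e-09 for Itgam to 0.671 for Ifngr1. No alternative run reversed the sign of any of the 258 genes that it tested. The 258 were picked for a difference in these same libraries, most of which each alternative reuses. A kept sign was therefore nearly fixed in advance and is no separate support. Leaving out both URE het Tet2 KO replicates 2 and 3 reversed no sign either, but replicate 1, which remained, had also taken part in the picking.

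**Figure D2:**
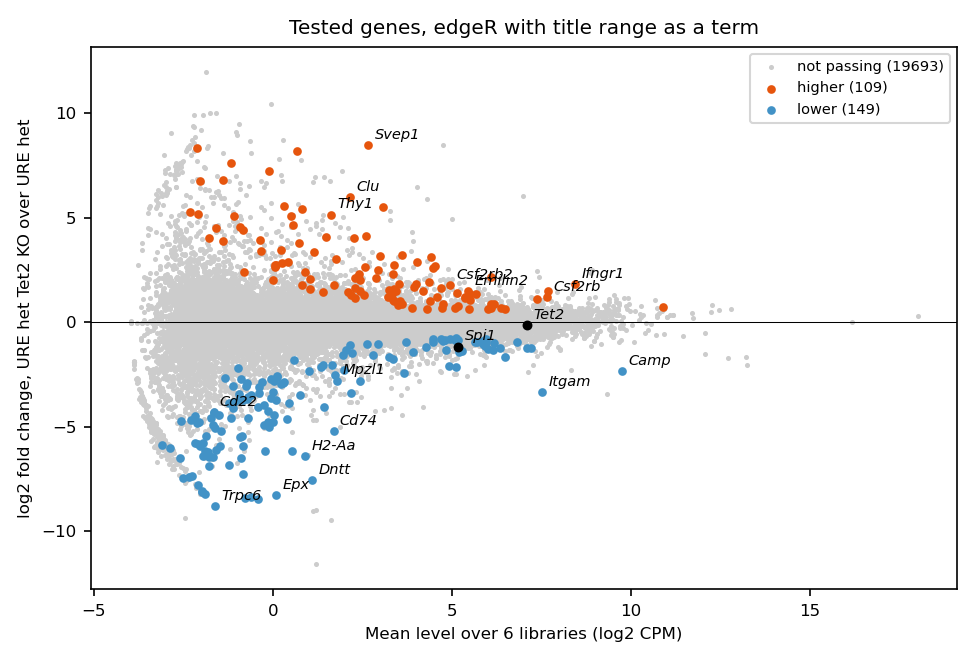
Log2 fold change of URE het Tet2 KO over URE het (vertical) against the mean log2 CPM over the 6 libraries (horizontal) for the 19951 genes tested. Orange points are the 109 genes that passed and were higher, blue points the 149 that passed and were lower, and the labelled Spi1 and Tet2 (black) did not pass.

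Spi1 RNA (GRCm38 chr2:91082390-91115756) did not pass. It stood at 90.9, 53.9 and 45.3 CPM in URE het replicates 1, 2 and 3, and at 98.6, 7.83 and 12.2 CPM in URE het Tet2 KO. Replicate 1 of URE het Tet2 KO was the highest of the 6 and replicates 2 and 3, the libraries with the low chromosome 2 stretch, were the lowest, so the groups overlapped. The log2 fold change was -1.17 ± 0.55 (SE, adjusted p = 0.247). Within the later title range it was -2.30 (adjusted p = 0.000604, range over 28 alternatives 0.000604 to 0.962), and the single pair of the earlier range differed by 0.12. Tet2 stood at 129, 130 and 176 CPM in URE het and 112, 113 and 176 CPM in URE het Tet2 KO, a log2 fold change of -0.12 ± 0.21 (adjusted p = 0.785). With both URE copies Tet2 was lower in Tet2 KO, at 80.2, 81 and 86.3 CPM, than in WT, at 133, 108 and 117 CPM, without passing. A count over the whole gene does not show whether a deleted exon is missing, so the Tet2 count does not by itself check the genotype label. Of the 14 tested DNA methylation and demethylation enzymes, which include the other Tet enzymes and the DNA methyltransferases, none passed (median -0.28). Apobec1, a cytidine deaminase, had the smallest p of them, at 29.1, 20.6 and 11.9 CPM against 28.1, 47.1 and 60.8 CPM (log2 fold change 1.31 ± 0.36, adjusted p = 0.0812).

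MHC class II presents peptides to CD4 T cells on B cells, dendritic cells and some progenitors. Of 10 tested genes of this system, 4 fell and none rose, the other 6 did not pass, and 9 did not overlap between the groups. Over all genes tested 0.747% fell and 17.9% did not overlap. The list had a median log2 fold change of -3.40, against 0.02 over all genes. Cd74, the invariant chain of the class II pathway, stood at 21.7, 22.8 and 13.6 CPM in URE het and at 0.465, 0.287 and 0.817 CPM in URE het Tet2 KO. Every URE het Tet2 KO library lay more than an order of magnitude below every URE het library, and Cd74 fell by 5.19 ± 1.04 on the log2 scale (adjusted p = 0.0433). H2-Aa, the alpha chain of the I-A molecule, was named after its values were seen: it stood at 27.1, 16.6 and 9.96 CPM against 0.381, 0 and 0.272 CPM and fell by 6.39 ± 1.41 (adjusted p = 0.0485). Peptide-loading partners fell as well. H2-Ob, a subunit of the H2-O chaperone, fell by 4.79 ± 1.04 (adjusted p = 0.047) from 3.06 to 6.05 CPM to 0.0907 to 0.254 CPM. H2-DMa, a subunit of the H2-M peptide exchanger, stood at 16.6, 19.8 and 14.6 CPM in URE het against 4.82, 3.99 and 7.77 CPM, without overlap, and fell by 1.64 ± 0.32 (adjusted p = 0.0349). Ciita, the master activator of class II genes, was at 1.79 to 3.41 CPM against 0.0423 to 0.315 CPM without passing (adjusted p = 0.0826). The beta chains H2-Ab1 and H2-Eb1 did not overlap either and did not pass (adjusted p = 0.0895 and 0.0875). H2-DMb1 differed by 0.03 and overlapped. The list's median was -3.17 within the later title range and -3.34 in the single earlier pair, and it was 0.01 between Tet2 KO and WT. Cd74 passed in 12 of 29 alternatives, with adjusted p from 4.35e-06 to 0.337, and the 15 MHC class I and peptide loading genes tested showed no call and a median of 0.10. In sorted bulk RNA, fewer cells of a type and less RNA per cell cannot be told apart. The H2 genes are close relatives whose reads an aligner may share out, which makes the level of each less certain.

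Class II promoters carry a conserved Y box bound by the factor NF-Y, and the bases before the start of H2-Aa and H2-Ob are shown because both fell and both hold it. They are from RefSeq on GRCm38.p6, 5′ to 3′ on the gene's strand, the 250 bases before the start, with the letters GATTGG of the Y box core (searched on both strands) in capitals. The window of H2-Aa is chr17:34287824-34288073 on the minus strand, and that of H2-Ob is chr17:34238655-34238904 on the plus strand.
H2-Aa: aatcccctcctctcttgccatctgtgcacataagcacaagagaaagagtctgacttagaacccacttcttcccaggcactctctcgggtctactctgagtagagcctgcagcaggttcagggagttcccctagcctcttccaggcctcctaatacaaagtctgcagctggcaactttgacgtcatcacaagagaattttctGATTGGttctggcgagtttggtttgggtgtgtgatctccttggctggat
H2-Ob: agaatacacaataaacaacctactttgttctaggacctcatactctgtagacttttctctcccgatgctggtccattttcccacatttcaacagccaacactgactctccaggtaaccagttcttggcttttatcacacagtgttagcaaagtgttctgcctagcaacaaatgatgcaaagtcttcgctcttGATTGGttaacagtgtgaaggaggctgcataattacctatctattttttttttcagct
The match began 49 bases before the start of H2-Aa and 58 bases before that of H2-Ob. H2-Eb1 held 2 matches, and H2-DMa held 1 in 1 of its 2 windows. Of 32851 such windows over all genes in the table, 4783 (14.6%) held at least 1 match.

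In these cells, sorted for the lack of lymphoid markers, 5 of 21 tested B lineage genes fell and none rose, where 0.747% of all genes tested fell (median log2 fold change -2.59, or -1.76 with the 5 genes at 0 in all URE het Tet2 KO libraries set to their bounds). Dntt, the terminal transferase that adds bases at immunoglobulin joins in lymphoid progenitors, stood at 39.6, 22.4 and 15.8 CPM in URE het and at 0.296, 0.0573 and 0.0907 CPM in URE het Tet2 KO. It was the most abundant of the 5 and fell by 7.55 ± 1.53 on the log2 scale (adjusted p = 0.0437). Rag1 and Rag2 encode the recombinase of the same step and lie in the low chromosome 2 stretch. Rag1 stood at 0.476, 1.33 and 0.808 CPM and had no count in any URE het Tet2 KO library, at least 26.9-fold lower with a floor of 3 counts over the group. Rag2 fell by 5.07 ± 0.98 (adjusted p = 0.0349). Both were near 0 in replicate 1 too, where the stretch read 102%. Ebf1, a B cell fate factor at 0.733, 0.498 and 0.635 CPM in URE het, also had no count in the 3 URE het Tet2 KO libraries and was at least 18.9-fold lower (adjusted p = 0.0405). Cd22, an inhibitory siglec of B cells, stood at 0.696, 0.698 and 1.36 CPM against 0.0423, 0.0287 and 0.0605 CPM and fell by 4.28 ± 0.57 (adjusted p = 0.00912, passing in 25 of 29 alternatives but not with the sex term). The surrogate light chain gene Igll1 ran the other way in 2 libraries only, and was singled out after its values were seen. It was at 0.404 to 0.764 CPM in URE het, at 241 and 124 CPM in replicates 2 and 3 of URE het Tet2 KO and at 0.254 CPM in its replicate 1, and did not pass (adjusted p = 0.0968).

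Among 20 tested T and NK cell genes 1 fell and 1 rose (0.747% and 0.546% over all genes tested), with a median of -1.03. Gzma, the granule protease granzyme A, stood at 0.55, 0.266 and 1.3 CPM against 0, 0.0287 and 0.0302 CPM and fell by 4.82 ± 1.07 (adjusted p = 0.047). Thy1, the T cell antigen also found on some progenitors, rose 35.8-fold (log2 fold change 5.16 ± 1.11, adjusted p = 0.047). Its rise came from 2 libraries: it was at 0.623, 1.16 and 0.491 CPM in URE het, at 49.7 and 36.2 CPM in replicates 2 and 3 of URE het Tet2 KO but at 0.972 CPM in its replicate 1, and without those 2 its log2 fold change was 0.13. Of the lymphoid markers, Il7r was at 1.76 to 3.7 CPM in URE het and 0.0846 to 0.575 CPM in URE het Tet2 KO, and Cd79a at 0.33 to 0.399 CPM against 0.0573 to 0.333 CPM. Cd3e went the other way in 1 library, at 0 to 0.115 CPM in URE het and at 0, 0 and 2.93 CPM in URE het Tet2 KO, and none of these 3 markers passed. The summed level of 3 plasma cell markers (Jchain, Sdc1 and Mzb1) was 4.12 to 12.4 CPM against 0.423 to 1.15 CPM. The part of such cells in these results was not tested.

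Mast cell, basophil and eosinophil genes had the lowest median of the 32 lists other than the targeted pair, -3.62, with 2 of 20 passing, both lower, and 14 without overlap (0.747% and 17.9% over all genes tested). Epx, the eosinophil peroxidase, stood at 7.99, 33.5 and 4.04 CPM in URE het and at 0.0846, 0.0287 and 0.0302 CPM in URE het Tet2 KO, and fell by 8.26 ± 1.50 (adjusted p = 0.0349). Ms4a2, the beta chain of the IgE receptor, stood at 26.2, 15.7 and 10.6 CPM against 3.68, 1.2 and 0.333 CPM and fell by 3.38 ± 0.76 (adjusted p = 0.0498, above 0.05 in 19 of 29 alternatives). Both groups were apart for these genes, and the URE het Tet2 KO libraries differed among themselves. Cpa3, a mast cell protease, stood at 17.8 CPM in replicate 1 and at 0.229 and 0.0605 CPM in replicates 2 and 3, against 68.2 to 128 CPM in URE het, and did not pass (adjusted p = 0.171). The list's median was -6.12 within the later title range and -2.49 in the earlier pair. The summed level of Fcer1a, Cpa3, Mcpt8 and Prss34 was 103 to 218 CPM in URE het and 22.3 to 39.4 CPM in URE het Tet2 KO. Mcpt8 made up most of that sum in URE het Tet2 KO replicates 2 and 3 and did not pass. It stood at 48.1, 45.1 and 27.5 CPM in URE het and at 17.1, 21.9 and 32.5 CPM in URE het Tet2 KO, with overlap (log2 fold change -0.77, adjusted p = 0.271). The part of such cells was not tested.

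Of 28 stem cell genes tested, 3 fell and 1 rose (0.747% and 0.546% over all genes tested), with a median of -2.07. Trpc6, a cation channel gene used as a marker of stem cells, stood at 1.91, 1.16 and 1.88 CPM in URE het and had no count in any URE het Tet2 KO library, at least 50.4-fold lower (adjusted p = 0.0349). Mycn, a Myc-family factor, was at 4.87, 2.39 and 2.17 CPM against 0, 0.086 and 0.0302 CPM and fell by 6.48 ± 1.43 (adjusted p = 0.047). Fhl1, a LIM-domain protein, fell by 4.42 ± 1.00 (adjusted p = 0.0485). The member that rose was Cdkn1c, the cell cycle inhibitor p57 of quiescent stem cells, at 0.403, 0.299 and 0.26 CPM in URE het and 2.03, 3.99 and 5.05 CPM in URE het Tet2 KO. All 3 URE het Tet2 KO libraries lay above all URE het libraries, and the rise was 11.2-fold (log2 fold change 3.48 ± 0.62, adjusted p = 0.0309). It was the 1 of 5 tested CDK inhibitors that passed, where 1.29% of all genes tested did. The Hoxa genes and Meis1, which act in stem cell self-renewal and in many leukaemias, did not pass (0 of 14 in their list, median -2.22). Meis1 was at 29.4, 12.9 and 12.9 CPM in URE het and at 2.66, 0.115 and 0.121 CPM in URE het Tet2 KO (adjusted p = 0.114), and Hoxa9 at 2.97 to 7.07 CPM against 2.49, 0.0573 and 0.0302 CPM (adjusted p = 0.353). Both were lower in all 3 URE het Tet2 KO libraries, and both were lowest in replicates 2 and 3.

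Of 22 tested erythroid genes 1 fell and 1 rose, where 0.747% and 0.546% of all genes tested did. The median was -2.08, which was -5.45 within the later title range and -0.82 in the earlier pair. Gfi1b, a repressor that erythroid and megakaryocytic cells need, stood at 2.45, 1.63 and 0.808 CPM against 0.0846, 0 and 0 CPM and fell by 5.92 ± 1.05 (adjusted p = 0.0309). The member that rose was Mt2, a metallothionein, whose values are given with Mt1. Of 18 late neutrophil genes 17 had a log2 fold change below 0, as had 9729 of the 19951 genes tested. Only 1 passed, where 1.29% of all genes tested did. The neutrophil median was -1.28, with -2.25 within the later title range and -0.4 in the earlier pair. Camp, the cathelicidin of secondary granules, stood at 1780, 2860 and 1300 CPM in URE het and at 761, 255 and 298 CPM in URE het Tet2 KO, without overlap, and fell by 2.34 ± 0.44 (adjusted p = 0.0349). Ltf, the lactoferrin of the same granules, was at 1660 to 4130 CPM in URE het and at 1200, 25.5 and 102 CPM in URE het Tet2 KO without passing (adjusted p = 0.0875). None of the 19 primary granule and granulocyte-monocyte progenitor genes passed, and their median was 0.58: Ctsg, the cathepsin G of early granules, was at 274, 520 and 715 CPM against 1070, 1360 and 1080 CPM (adjusted p = 0.0755). The summed level of S100a8, Camp, Ngp and Ltf as neutrophil markers was 23500 to 50900 CPM in URE het and 6570 to 20600 CPM in URE het Tet2 KO, and its part was not tested.

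Of 29 genes known to depend on PU.1 in myeloid cells 1 fell and none rose, where 0.747% and 0.546% of all genes tested did. The median of the 29 was -0.41. Itgam, the CD11b integrin of monocytes and granulocytes, stood at 1520, 629 and 221 CPM in URE het and at 290, 15.1 and 38.8 CPM in URE het Tet2 KO. The highest URE het Tet2 KO library overlapped the lowest URE het library. Itgam fell by 3.34 ± 0.53 (adjusted p = 0.0224) and passed in 21 of 29 alternatives. It did not pass with the sex term, nor without the title-range term, where the adjusted p was 0.248. Without URE het Tet2 KO replicates 2 and 3 its log2 fold change was -2.52. The cytokine receptors Csf1r and Csf3r in that list did not pass and overlapped (log2 fold changes 0.31 and 0.49). Of 24 monocyte and dendritic genes 1 fell, where 0.747% of all genes tested did. It was Rnase6, a secreted ribonuclease, from 2.93, 2.52 and 2.31 CPM to 0.127, 0.0573 and 0 CPM (log2 fold change -5.44 ± 0.80, adjusted p = 0.0154). Rnase6 passed in 24 of 29 alternatives, among them the fit with a sex term, where its adjusted p was 0.0075 (range over the 29 1.58e-08 to 0.185).

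The genes that rose included the signalling subunits of cytokine receptors. Of 24 tested growth factor and cytokine receptors 3 rose and none fell (median 0.24), where 0.546% of all genes tested rose. Csf2rb (GRCm38 chr15:78325752-78353847), the beta subunit common to the IL-3, GM-CSF and IL-5 receptors, stood at 142, 141 and 113 CPM in URE het and at 391, 290 and 252 CPM in URE het Tet2 KO. All 3 URE het Tet2 KO libraries were higher, replicate 1 most, and the rise was 2.33-fold (log2 fold change 1.22 ± 0.16, adjusted p = 0.00912). Csf2rb2 (chr15:78282507-78305721), its IL-3-specific neighbour, stood at 19.6, 16.2 and 14.3 CPM against 82.7, 44.2 and 49.8 CPM and rose 3.46-fold (log2 fold change 1.79 ± 0.25, adjusted p = 0.00912). The 2 genes are close copies whose reads may be shared out between them, so their separate levels are uncertain. Csf2rb passed in 25 of 29 alternatives and Csf2rb2 in 28, with adjusted p up to 0.0673 and 0.0538. With the sex term, whose size came from other genotypes, their adjusted p was 0.0151 and 0.0498, and both passed. The ligand-binding alpha subunits did not pass: Csf2ra differed by -0.17 and Il3ra by 1.10. Ifngr1, the ligand-binding chain of the interferon gamma receptor, stood at 157, 186 and 224 CPM against 406, 873 and 737 CPM and rose 3.58-fold (log2 fold change 1.84 ± 0.40, adjusted p = 0.047). It passed in 11 of 29 alternatives, not among them the fit with the sex term, and its partner chain Ifngr2 did not pass (log2 fold change -0.88, adjusted p = 0.12). None of 29 JAK-STAT and RAS signalling genes passed. Pim1, a STAT-induced kinase, was at 23.4, 12.3 and 7.56 CPM against 57, 48 and 20.9 CPM (log2 fold change 1.59 ± 0.36, adjusted p = 0.0504), and Spred1, an inhibitor of RAS signalling, at 23.6, 22.6 and 21.2 CPM against 12.3, 12.5 and 12.4 CPM (log2 fold change -0.86 ± 0.22, adjusted p = 0.0687).

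**Figure D3:**
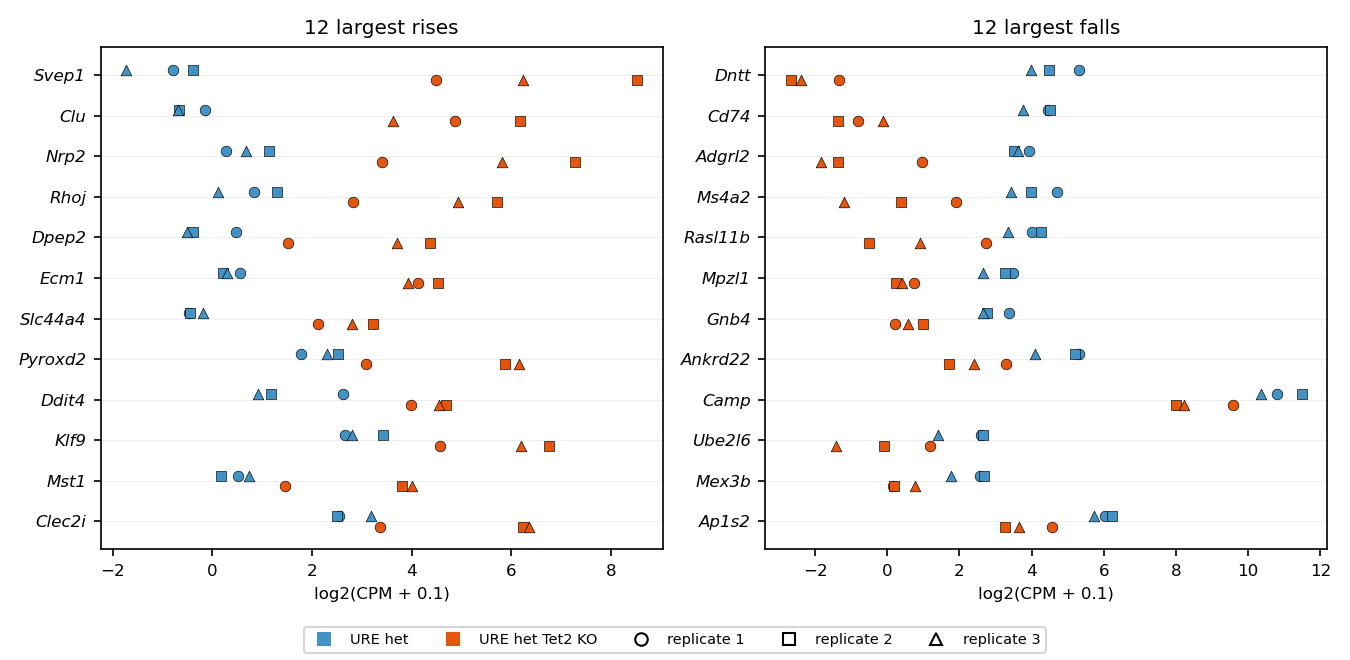
Level in each of the 6 libraries, as log2(CPM + 0.1), of the 12 genes with the largest rises (left) and the 12 with the largest falls (right) among genes that passed, averaged at least 1 log2 CPM and did not overlap between the groups. Blue is URE het, orange URE het Tet2 KO, and the marker shape gives the replicate. For most of the rises replicate 1 (orange circle) lies nearer to URE het than replicates 2 and 3, and for Ecm1, Mpzl1, Gnb4 and Mex3b all 3 orange points lie close together.

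The largest rise among the named genes was that of Svep1. Svep1, a large extracellular adhesion protein, stood at 0.476, 0.664 and 0.202 CPM in URE het and at 22.2, 368 and 75.4 CPM in URE het Tet2 KO, and had a log2 fold change of 8.47 ± 1.81 (adjusted p = 0.047). Clu, the secreted chaperone clusterin, stood at 0.806, 0.532 and 0.52 CPM against 29.1, 72.5 and 12.2 CPM and rose 64.3-fold (log2 fold change 6.01 ± 1.06, adjusted p = 0.0343). Both were near 0 in every URE het library and clearly present in every URE het Tet2 KO library, over a wide range. With the sex term Clu passed, at adjusted p = 0.00519 (range over 29 alternatives 4.29e-10 to 0.149), and Svep1 did not, at adjusted p = 0.0513 (range 1.41e-06 to 0.43). Ecm1, an extracellular matrix protein, was steadier, at 1.36, 1.06 and 1.13 CPM against 17.5, 23.1 and 15.1 CPM, and rose 16.2-fold (log2 fold change 4.01 ± 0.65, adjusted p = 0.0233, passing in 23 of 29 alternatives). Nrp2, a receptor for semaphorins and vascular growth factors, was at 1.1 to 2.09 CPM in URE het and at 10.5, 156 and 55.9 CPM in URE het Tet2 KO (adjusted p = 0.047), and Rhoj, a small GTPase, at 0.982 to 2.36 CPM and at 6.98, 52.7 and 30.6 CPM (adjusted p = 0.0462). Of 19 secreted and matrix genes tested 2 rose, Svep1 and Clu, and none fell, where 0.546% and 0.747% of all genes tested did. The list, written with earlier results of these data known, had a median of 1.67. That median was 2.07 within the later title range and -0.26 in the earlier pair. Fn1, fibronectin, was named after its values were seen. It was at 63.2, 21 and 15.9 CPM in URE het, at 2830 and 1230 CPM in replicates 2 and 3 of URE het Tet2 KO and at 52.7 CPM in its replicate 1, and did not pass (adjusted p = 0.0681). Of 7 markers of stroma and endothelium, Emcn, endomucin of endothelial and stem cells, fell (1.83, 0.731 and 0.866 CPM against 0.0423, 0 and 0 CPM, adjusted p = 0.0485), and Kdr and Cdh5 were at 0 in all 3 URE het Tet2 KO libraries. Lepr and Col1a2 were at 7.71 and 8.17 CPM in URE het Tet2 KO replicate 2, against at most 0.147 and 0.598 CPM in URE het and at most 0.393 and 0.127 CPM in the other two, and did not pass. Cxcl12 was at 0.0423 to 0.635 CPM in URE het Tet2 KO against 0.0289 to 0.256 CPM, and Col1a1 at 0.212 to 1.56 CPM against 0.375 to 1.98 CPM. The summed level of the 7 was 1.62 to 4.91 CPM in URE het and 1.3 to 16.3 CPM in URE het Tet2 KO, the top of that range being replicate 2. The part of stromal cells was not tested.

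Ddit4 and Klf9 were also among the 12 largest rises. Ddit4, a stress-induced inhibitor of mTOR, stood at 6.05, 2.16 and 1.79 CPM in URE het and at 15.7, 25.7 and 23.3 CPM in URE het Tet2 KO and rose 8.95-fold (log2 fold change 3.16 ± 0.61, adjusted p = 0.0361). Klf9, a transcription factor induced by glucocorticoids, stood at 6.19, 10.6 and 6.9 CPM against 23.7, 108 and 73.1 CPM and rose 8.60-fold (log2 fold change 3.10 ± 0.61, adjusted p = 0.0394). Neither overlapped. The remaining large rises were Dpep2, a membrane dipeptidase, Slc44a4, a choline transporter family member, Pyroxd2, an oxidoreductase, Mst1, a secreted relative of hepatocyte growth factor, and Clec2i, a C-type lectin. Their adjusted p ran from 0.0309 (Clec2i) to 0.0498 (Mst1). In each of the 5 replicate 1 of URE het Tet2 KO was the lowest of its group. It lay above the highest URE het library, as the naming rule required, for Clec2i at 10.2 against 8.98 CPM.

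The 2 classical metallothioneins, small proteins that bind zinc and copper and are induced by metals and glucocorticoids, both rose. Mt1 stood at 6.74, 10.3 and 16.4 CPM in URE het and at 21.7, 49.2 and 59.6 CPM in URE het Tet2 KO, and rose 3.86-fold (log2 fold change 1.95 ± 0.36, adjusted p = 0.0349). Mt2 stood at 0.586, 0.133 and 0.26 CPM against 3, 7.91 and 9.65 CPM and rose 25.2-fold (log2 fold change 4.65 ± 0.84, adjusted p = 0.0338). No library overlapped for either gene. None of the 4 other genes of zinc handling in the list passed, among them the metal-sensing factor Mtf1 (log2 fold change -0.29), and the median of the 6 was -0.03. Over all genes tested 0.546% rose. Mtf1 acts through short metal response elements, and the 250 bases before the start of the 2 genes are shown because the pair rose together. They are from RefSeq on GRCm38.p6, both on the plus strand, 5′ to 3′, with TGCACNC or TGCGCNC on either strand in capitals. The window of Mt1 is chr8:94178839-94179088 and that of Mt2 is chr8:94172368-94172617.
Mt1: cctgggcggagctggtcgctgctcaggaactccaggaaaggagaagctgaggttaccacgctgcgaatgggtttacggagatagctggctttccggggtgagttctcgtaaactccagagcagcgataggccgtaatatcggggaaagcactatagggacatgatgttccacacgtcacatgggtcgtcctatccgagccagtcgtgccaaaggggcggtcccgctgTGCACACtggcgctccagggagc
Mt2: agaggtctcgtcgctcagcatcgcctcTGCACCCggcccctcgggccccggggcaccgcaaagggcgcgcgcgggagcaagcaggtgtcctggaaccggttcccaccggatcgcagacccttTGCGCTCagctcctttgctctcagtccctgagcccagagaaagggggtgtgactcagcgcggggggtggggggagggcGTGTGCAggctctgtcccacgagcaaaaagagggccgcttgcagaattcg
Mt2 held 3 matches, beginning 223, 128 and 50 bases before the start, and Mt1 held 1, beginning 23 bases before it. A match was present in 7032 of 32851 windows (21.4%).

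Mpzl1 and 7 more genes made up the largest falls outside these groups. Mpzl1, a surface glycoprotein that binds the phosphatase SHP-2, stood at 11.2, 9.5 and 6.21 CPM in URE het and at 1.56, 1.09 and 1.24 CPM in URE het Tet2 KO, and fell by 2.79 ± 0.34 (adjusted p = 0.00912). Its groups were far apart and tight. Only Mpzl1, Emilin2 and Ms4a4c of the 258 passed whichever 1 of the 17 libraries was left out, the last pair named after this was seen. Emilin2, an extracellular matrix glycoprotein, stood at 44.9, 19.2 and 20.6 CPM against 103, 70.5 and 52.9 CPM and rose 2.79-fold (log2 fold change 1.48 ± 0.19, adjusted p = 0.00912). Ms4a4c, a membrane protein of the Ms4a family, stood at 3.08, 3.62 and 2.8 CPM against 0.254, 0.401 and 0.0907 CPM and fell by 3.64 ± 0.50 (adjusted p = 0.00912). Gnb4, a G protein beta subunit, fell by 2.53 ± 0.41 (adjusted p = 0.0227) from 10.2, 6.64 and 6.24 CPM to 1.06, 1.89 and 1.39 CPM. Adgrl2, an adhesion G protein-coupled receptor, stood at 15.1, 11.3 and 12.3 CPM against 1.86, 0.287 and 0.181 CPM, and the RNA-binding protein gene Mex3b at 5.83, 6.31 and 3.32 CPM against 1.01, 1.03 and 1.6 CPM. Both fell, by 4.07 and 2.13 on the log2 scale (adjusted p = 0.0434 and 0.0343). Ankrd22, Rasl11b, Ube2l6 (a conjugating enzyme for ISG15) and the X-linked Ap1s2 (an adaptor subunit of vesicle coats) fell by 2.45, 2.83, 2.32 and 2.11. Ube2l6 lies in the chromosome 2 stretch. That stretch held 9 of the 258 genes, 8 of them lower (5.37% of the lower genes), and 790 of the genes tested (3.96%). The X chromosome held 15 of the 258 (5.81%) and 3.59% of the genes tested, and no Y-linked gene passed.

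**Figure D4:**
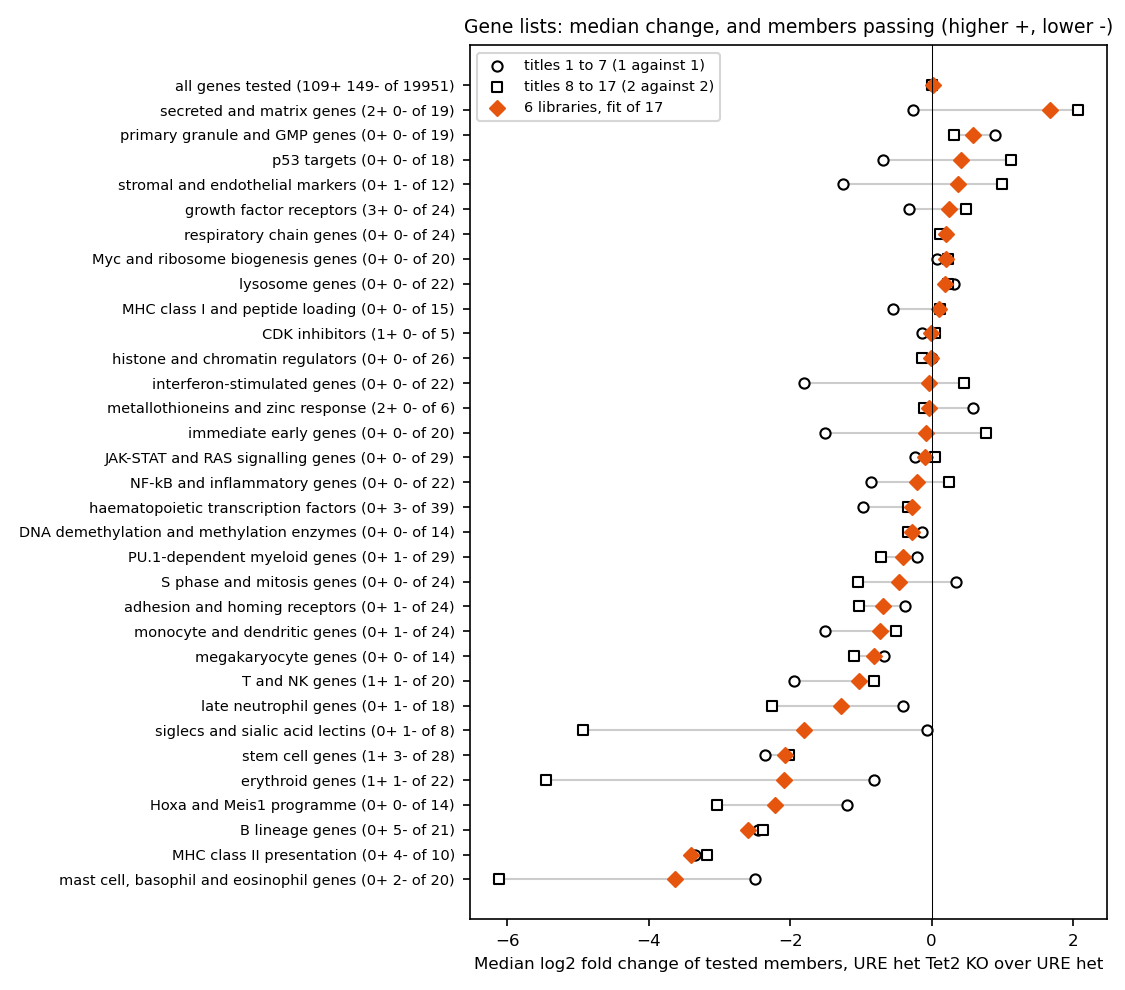
Median log2 fold change of URE het Tet2 KO over URE het for each gene list: the fit of all libraries (diamonds), libraries of the later title range alone (squares, 2 against 2) and the single pair of the earlier range (circles). Labels give the members that passed higher (+) and lower (-) of those tested. MHC class II, B lineage and stem cell medians lie close together in the 3 readings, while mast cell, erythroid, neutrophil and matrix medians lie apart.

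Cell cycle, growth, stress and immune response lists had no call. None of 24 S phase and mitosis genes passed (median -0.46). Of the 24, 23 had a log2 fold change below 0, as had 9729 of the 19951 genes tested. The median of the 24 was -1.04 within the later range and 0.35 in the earlier pair: Top2a, a topoisomerase of dividing cells, stood at 1100, 1390 and 926 CPM in URE het and at 1010, 458 and 555 CPM in URE het Tet2 KO (adjusted p = 0.0976). Among 20 Myc and ribosome biogenesis genes none passed (median 0.20). Myc itself was at 122, 85.5 and 76.2 CPM against 116, 226 and 190 CPM (log2 fold change 0.92 ± 0.27, adjusted p = 0.0902), overlapping through replicate 1. Interferon-stimulated genes (0 of 22, median -0.03), p53 targets (0 of 18, median 0.42) and immediate early genes (0 of 20, median -0.08) had medians of opposite sign in the 2 title ranges, at 0.46, 1.12 and 0.77 in the later and -1.81, -0.68 and -1.50 in the earlier pair. Histone and chromatin regulators (0 of 26), respiratory chain (0 of 24), lysosome (0 of 22), NF-kB (0 of 22) and megakaryocyte genes (0 of 14) had medians of -0.01, 0.21, 0.19, -0.20 and -0.82. In each of these lists the count of 0 stands beside 1.29% of all genes passing. Of 39 haematopoietic transcription factors 3 fell, where 0.747% of all genes tested did, and the median was -0.27. The 3 were Gfi1b, Ebf1 and Trib2, a pseudokinase grouped with the factors. Trib2 stood at 1.25, 1.93 and 0.953 CPM against 0.0846, 0.0287 and 0 CPM (adjusted p = 0.0349).

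The 2 title ranges are separate libraries and could be set side by side, 2 against 2 in the later and 1 against 1 in the earlier. Of the 1786 genes that were higher in the later range alone, 55.7% were also higher in the earlier pair, against 50.2% of all genes tested. Of the 1945 that were lower, 63% were lower in the earlier pair, against 49.8%. The earlier pair is 1 library against 1 and has no test.

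Loss of Tet2 was also compared with both URE copies present, Tet2 KO against WT, in libraries that this comparison does not share. By edgeR no gene passed (0% of 19951, smallest adjusted p = 0.866), with 719 genes at an unadjusted p under 0.05, whereas DESeq2 called 19 and limma voom 1. An edgeR fit of the Tet2 KO and WT libraries alone called 25, of which 3 were higher and 22 lower in Tet2 KO. The 2 differences were tested against each other as an interaction. The first sets AML libraries against Normal ones and the second Normal against Normal. Loss of Tet2 and leukaemia therefore cannot be told apart in the interaction either. No gene passed (0% by edgeR, smallest adjusted p = 0.114), 2460 had an unadjusted p under 0.05, and DESeq2 called 335 and limma voom 985. Other edgeR fits did call genes for the interaction: 1 with no filter on low counts, 4 with a term for sex, 77 with the 12 libraries of the 4 groups alone, 723 with titles 8 to 17, 986 without URE het Tet2 KO replicate 1, and 217 or 215 without 1 library of URE Δ/+ with Tet2 +/-. Of the 258 genes, 162 (62.8%) had the same sign in both, against 49.6% of all genes tested. The median log2 fold change between Tet2 KO and WT was 0 among the genes that rose and -0.32 among those that fell. The 258, and the genes named next, were picked for a difference between URE het Tet2 KO and URE het. Smaller changes between Tet2 KO and WT were therefore largely fixed in advance and do not show that the 2 differ. For Csf2rb the change was 1.22 with the deletion and -0.13 ± 0.16 without it (interaction adjusted p = 0.125), for Cd22 -4.28 and -0.07 ± 0.41 (interaction adjusted p = 0.125), for Itgam -3.34 and 0.35 ± 0.48 (interaction adjusted p = 0.175), and for Rnase6 -5.44 and -0.18 ± 0.56 (interaction adjusted p = 0.169). B lineage genes had medians of -2.59 and -1.11 in the 2 settings, with Ebf1 at -7.34 and -2.12 ± 0.78, and mast cell and eosinophil genes -3.62 and -0.70.

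**Figure D5:**
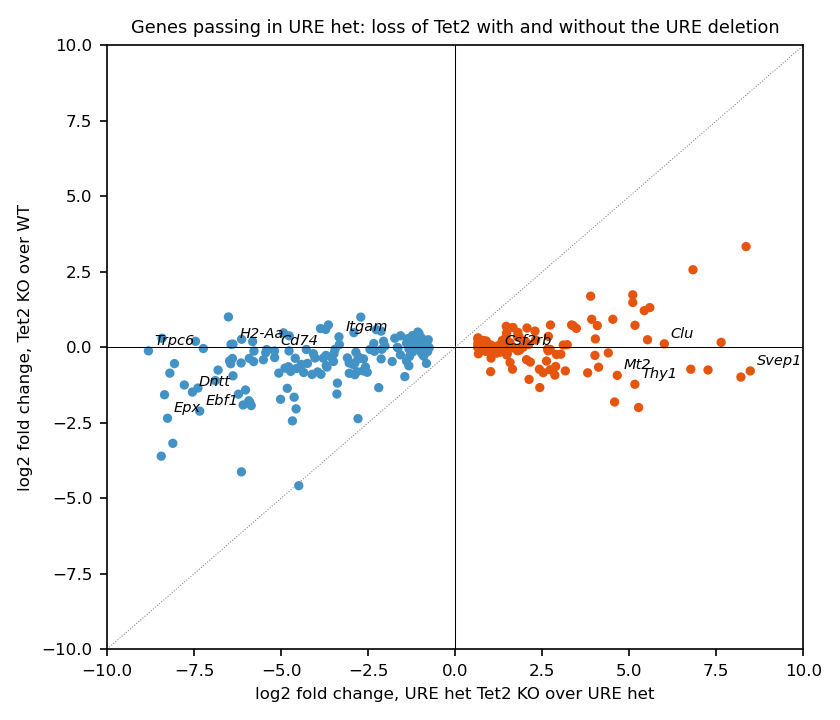
Log2 fold change of URE het Tet2 KO over URE het (horizontal, 1 URE copy deleted, AML over Normal) and of Tet2 KO over WT (vertical, both copies present, all Normal) for the 258 genes that passed in the former. Orange genes rose and blue genes fell, and the dotted line marks equal change. On the vertical axis the medians are 0 for the genes that rose and -0.32 for those that fell, against 2.03 and -3.5 on the horizontal axis. The genes were picked for a difference on the horizontal axis, so larger medians there were largely fixed in advance.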

How the data were processed

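The deposited table held raw counts made by the authors, 1 column per library and not normalized. Reads were aligned with STAR to GRCm38, per the submitters' processing notes (annotation, counting tool and strand use: not given in the sources used here). Of 96004 features 47643 were genes, and 48361 features marked enh (2.63% to 5.71% of counts) were left out. Symbols and positions came from GENCODE vM21 (47224 identifiers matched). Library depth over genes was 21.1 to 38.3 M counts. Levels are CPM after TMM scaling, in replicate order 1, 2, 3; replicate numbers follow the deposit order and pair nothing. Genes passing filterByExpr (minimum count 10, minimum total 15) were tested with edgeR 4.0.16 (R 4.3.3; quasi-likelihood, robust, two-sided, Benjamini-Hochberg over 19951 genes, threshold 0.05) over all 17 libraries with 6 genotype means and a title-range term. Each SE is approximate, the absolute log2 fold change divided by the root of F. Fits with DESeq2 1.42.0 and limma voom 3.58.1, other scalings and filters, subsets and omission of each library were alternatives. Genes named were Spi1, Tet2, the 12 largest rises and falls (passing, at least 1 mean log2 CPM, no overlap), up to 3 passing members of each list and, in lists with none, the 2 of smallest p; other genes named are said to be so or stand as members of a list. The genes, lists and comparison were chosen with earlier results of these data known. Sex was read from Xist above 100 CPM or a Y-linked sum above 10 CPM. RefSeq windows were found for H2-Aa, H2-Ob, H2-DMa, H2-Eb1, Mt1 and Mt2. A few genes that the naming rule or the marker lists hold are not reported here.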

Additional observations from a re-analysis of the deposited data

How the results depend on the processing

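The 258 genes of URE het Tet2 KO against URE het became 71 without the title-range term, 60 with the 6 libraries alone, 3752 with titles 8 to 17 alone, 1763 with DESeq2, 2382 with limma voom, 78 with a sex term, 689 in those 15 libraries without it and 12 when both low-chromosome-2 URE het Tet2 KO libraries were left out (the last 2 chosen after seeing the data). DESeq2 size factors (246), no filter (230), no chromosome 2 stretch (270) and edgeR without robust spread (300) stayed within 1.5 times. Leaving out 1 library gave 7 to 3275. For Tet2 KO against WT the count was 25 with those groups' libraries alone, 19 with DESeq2, 1 with limma voom and 0 to 0 when leaving out 1 library. For the interaction it was 77 with its 4 groups alone, 723 with titles 8 to 17, 335 with DESeq2, 985 with limma voom, 1 without the filter, 4 with the sex term, 77 without it and 0 to 986 when leaving out 1 library. The cause was not tested. Of 2251 values of 78 named genes under alternatives, 1469 kept direction and side of the threshold, 655 lost the call, 121 gained one and 6 changed sign, all of genes that had not passed: with both low-chromosome-2 libraries left out, Apobec1 was -0.19, Tet3 0.04, Ier3 -0.01 and Spi1 0.11, and Tet2 was 0.01 in the 15 libraries without a sex term and ran from -0.38 to 0.04 when leaving out 1 library, 0.04 being without URE het replicate 3. No paired analysis was possible because the labels give no replicate numbers. Depth limits genes near 0 CPM, where a few counts set the fold change.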
